A study of Mus musculus with 17 samples.

Results

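The 34 genes described here are markers and regulators of blood vessel and lymphatic endothelium, taken by gene symbol from 19751 genes measured in whole mouse lung. All 34 were measured, each by 1 probe set with a single gene symbol, so none was lost to a filter. They were sorted by the role of their products into junction and adhesion proteins (5 genes), kinases (6), transcription factors (3), peptide and chemokine signalling (6), surface, tone and haemostasis (4), angiogenesis and guidance (5), connexins (2) and lymphatic markers (3).

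Whole lung RNA of 17 Balb/c mice was measured on Affymetrix Mouse Gene 1.0 ST arrays, with each mouse on an array of its own. The 6 anti-RGMb mice were sensitized and challenged with ovalbumin, an egg protein used as allergen, and were given a monoclonal antibody to RGMb, a membrane protein that binds bone morphogenetic proteins (BMPs) and neogenin. The 5 isotype mice were sensitized and challenged with ovalbumin in the same way and were given an isotype antibody, while the 6 saline mice had saline in place of ovalbumin, with no antibody stated. All mice were of 1 strain and 1 time point, and the labels give neither age nor sex. No group had the antibody without ovalbumin, so effects of the antibody on unchallenged vessels and on ovalbumin-challenged ones cannot be told apart. Isotype and saline mice differed in ovalbumin and in stated antibody, so effects of ovalbumin and of a given antibody cannot be told apart in that comparison. Experiment 1 held 3 anti-RGMb, 3 isotype and 3 saline mice, named by the numbers 1, 2 and 3, and experiment 2 held 3 anti-RGMb, 2 isotype and 3 saline mice, named 1-2, 2-2 and 3-2. The sample titles do not name an experiment, and mice were assigned to experiments by these numbers and the design text.

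Endothelial cells line every vessel of the lung, hold the barrier between blood and tissue through cadherin and claudin junctions, and take instructions from VEGF, angiopoietin, apelin, Notch and BMP ligands. The lung is among the organs richest in endothelium, most of it in the capillaries of the alveoli, while lymphatic endothelium drains fluid and leukocytes and depends on VEGFR3 signalling and on the transcription factor encoded by Prox1. During allergic inflammation leukocytes cross this layer, a step that adhesion molecules of activated endothelium control.

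Promoter sequence was available for 23 of the 34 genes in the RefSeq table of build GRCm38.p6, which covers 250 bases before to 50 after each start. Shown are the promoters of the 4 genes of the set with the largest falls in isotype mice relative to saline mice and, for contrast, that of Cxcl12, which passed the threshold in no comparison. They lie at chr13:113209409-113209708 (Esm1, plus strand), chrX:48034804-48035103 (Apln, minus strand), chr10:5593478-5593777 (Myct1, plus strand), chrX:164258144-164258443 (Bmx, minus strand) and chr6:117168285-117168584 (Cxcl12, plus strand). Capitals mark, on either strand, the letters AGGAAG (the core bound by ETS factors such as the product of Erg), ACAAAG (bound by SOX factors) and GGCGCC (an element bound by SMADs of BMP signalling), and the 3 motifs overlapped nowhere in these promoters.
Esm1: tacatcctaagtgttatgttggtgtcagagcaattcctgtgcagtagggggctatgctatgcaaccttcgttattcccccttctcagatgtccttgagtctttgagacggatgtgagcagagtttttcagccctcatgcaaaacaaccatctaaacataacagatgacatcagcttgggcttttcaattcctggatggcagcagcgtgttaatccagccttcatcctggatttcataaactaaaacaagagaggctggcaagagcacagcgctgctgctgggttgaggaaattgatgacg
Apln: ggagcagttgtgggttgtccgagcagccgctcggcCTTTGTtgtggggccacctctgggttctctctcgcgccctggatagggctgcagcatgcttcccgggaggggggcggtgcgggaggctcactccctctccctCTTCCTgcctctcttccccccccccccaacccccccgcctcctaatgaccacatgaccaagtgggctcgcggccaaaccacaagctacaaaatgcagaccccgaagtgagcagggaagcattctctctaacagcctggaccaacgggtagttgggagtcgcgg
Myct1: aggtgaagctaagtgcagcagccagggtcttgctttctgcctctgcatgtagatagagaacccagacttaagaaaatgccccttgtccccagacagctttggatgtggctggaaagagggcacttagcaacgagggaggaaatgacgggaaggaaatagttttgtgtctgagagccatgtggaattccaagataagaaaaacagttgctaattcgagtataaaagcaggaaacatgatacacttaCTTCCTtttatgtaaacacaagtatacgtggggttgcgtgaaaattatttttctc
Bmx: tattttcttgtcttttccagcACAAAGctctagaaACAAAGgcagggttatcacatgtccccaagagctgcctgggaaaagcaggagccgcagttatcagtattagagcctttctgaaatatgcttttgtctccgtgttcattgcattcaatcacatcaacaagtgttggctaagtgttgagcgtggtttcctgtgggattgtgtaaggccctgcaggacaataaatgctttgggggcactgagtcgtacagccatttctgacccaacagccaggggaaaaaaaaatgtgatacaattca
Cxcl12: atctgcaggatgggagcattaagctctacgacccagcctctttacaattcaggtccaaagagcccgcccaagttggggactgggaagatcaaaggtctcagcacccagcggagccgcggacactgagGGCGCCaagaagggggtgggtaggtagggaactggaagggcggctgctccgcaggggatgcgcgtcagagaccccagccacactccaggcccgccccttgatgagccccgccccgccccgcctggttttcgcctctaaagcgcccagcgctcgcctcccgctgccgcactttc

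AGGAAG was found in 11 of the 28 promoters of these genes (39.3%), against 35.4% of the 32851 promoters in the table. ACAAAG was found in 6 (21.4%, against 18.7% of all promoters) and GGCGCC in 4 (14.3%, against 11.9%). Apln held 1 match each to AGGAAG and ACAAAG, Bmx 2 to ACAAAG, Myct1 1 to AGGAAG and Cxcl12 1 to GGCGCC, while the Esm1 window held none of the 3 strings. A match is a run of letters and not a shown binding site.

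Levels are the authors' RMA probe set intensities on a linear scale, and array medians were 120 to 125 in experiment 1 and 362 to 386 in experiment 2, so values of the 2 experiments are not set against each other. Of the 34 genes, 31 were above the lower quartile of intensities on every array. Prox1 lay below it on 15 of 17 arrays, Esm1 on 3 and Bmx on 1, and precision is limited by how many arrays there are. Differences are on the log2 scale, from a limma fit over all genes with the experiment as a term, with standard errors after ±, and a gene was called higher or lower at a Benjamini-Hochberg adjusted p under 0.05. Every comparison used 6 anti-RGMb, 5 isotype and 6 saline mice. In bulk lung RNA, fewer endothelial cells, less RNA per endothelial cell and a larger share of RNA from other cells cannot be told apart.

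Most of the 34 genes were lower in isotype mice than in saline mice and intermediate in anti-RGMb mice. Between isotype and saline mice 29 genes fell, with 21.0% of all genes called lower, and Vwf alone rose, with 14.6% of all genes called higher. The median change of the 34 genes was -0.51, against -0.04 over all genes, and 32 of 34 were below 0, as were 11946 of all 19751 genes. Between anti-RGMb and isotype mice 25 genes rose, with 11.1% of all genes called higher, and none fell, with 10.0% of all genes called lower and 0 of the 34 lower at an unadjusted p under 0.05, while the median was 0.36, against 0.03 over all genes. By limma, anti-RGMb mice had 10 genes lower than saline mice, with 2.24% of all genes called lower, and none higher, with 4.26% of all genes called higher and 1 of the 34, Lyve1, higher at an unadjusted p under 0.05, at a median of -0.15 against -0.01 over all genes. That count of 10 was 6 without anti-RGMb mouse 2, anti-RGMb mouse 3 or saline mouse 1-2, and reached 11 without isotype mouse 3. It was 3 in a fit of experiment 1 alone and 0 in a fit of experiment 2 alone. In a limma model of all mice that gave each group its own mean in each experiment, 4 of the 34 genes were lower in experiment 1 and 3 in experiment 2. Of all 19751 genes, 119 and 129 were lower there. The comparisons share mice, so the changes are given side by side and not as separate evidence. The plot of the 34 changes in 3 comparisons gives each gene with its interval.

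**Figure D1:**
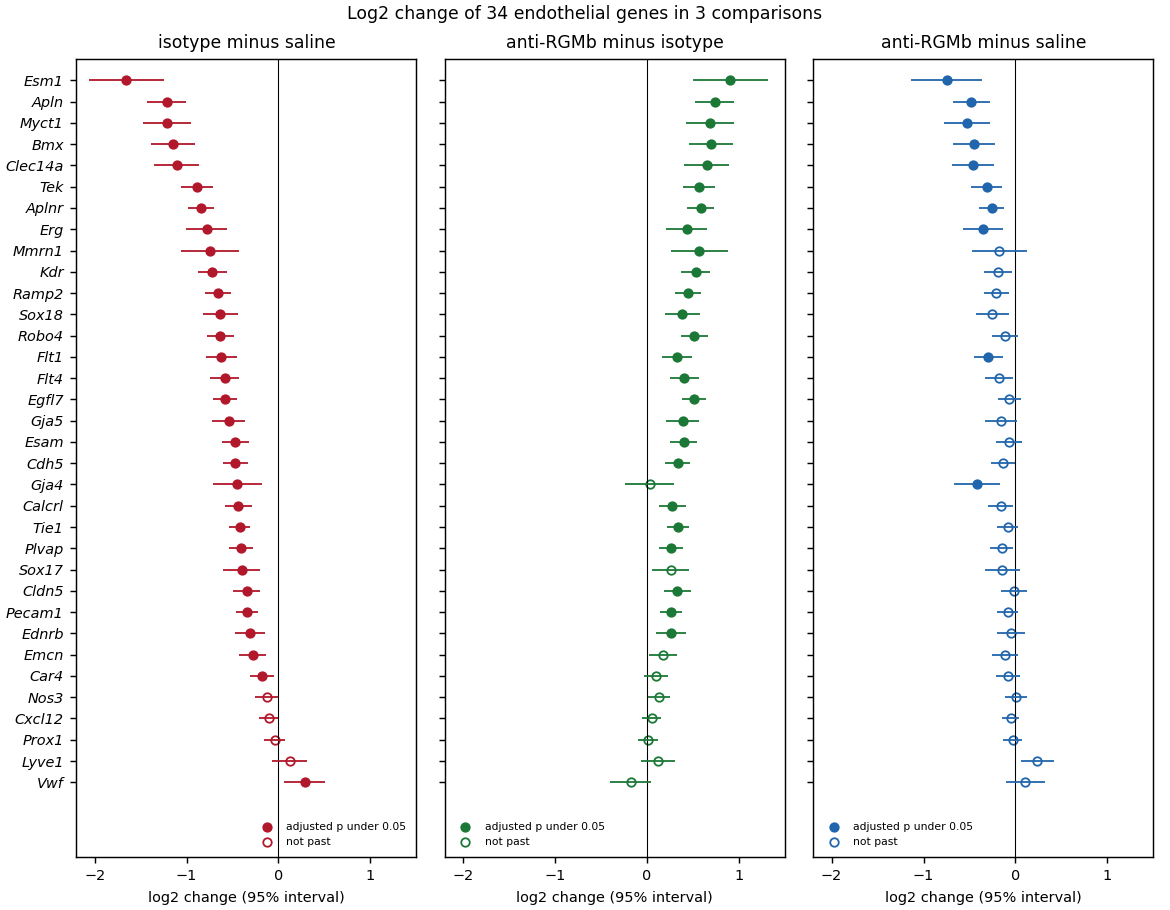
Log2 change of each of the 34 endothelial genes with its 95% interval (horizontal axis), in panels for isotype against saline, anti-RGMb against isotype, and anti-RGMb against saline mice; filled points passed the limma threshold and open points did not, and genes run from the lowest to the highest change in isotype minus saline. Of the 34 points, 29 are filled left of 0 in the first panel, 25 filled right of 0 in the second and 10 filled left of 0 in the third, a count that ran from 6 to 11 with single mice left out.

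The junction and adhesion genes had the smallest spread of change among the classes of 5 or 6 genes. All 5 fell in isotype mice relative to saline mice, 4 rose in anti-RGMb mice relative to isotype mice, and none passed between anti-RGMb and saline mice. Esam encodes an adhesion molecule of endothelial tight junctions. In experiment 1, Esam read 1266, 1331 and 1294 in anti-RGMb mice, 898, 1044 and 1169 in isotype mice, and 1244, 1452 and 1404 in saline mice. In experiment 2, Esam read 5494, 6030 and 5065 in anti-RGMb mice, 3713 and 4135 in isotype mice, and 5938, 5567 and 5801 in saline mice. Isotype mice lay below both other groups in each experiment, and anti-RGMb and saline mice overlapped. The change was -0.47 ± 0.07 between isotype and saline mice (adjusted p = 3.31e-05) and 0.40 ± 0.07 between anti-RGMb and isotype mice (adjusted p = 0.000476).

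Pecam1 encodes an adhesion molecule of endothelial cell contacts that platelets and leukocytes also carry. In experiment 1, Pecam1 read 3220, 3618 and 3395 in anti-RGMb mice, 2821, 2995 and 3326 in isotype mice, and 3769, 3552 and 3793 in saline mice. In experiment 2, Pecam1 read 5968, 5875 and 5875 in anti-RGMb mice, 4262 and 4797 in isotype mice, and 6034, 6162 and 6088 in saline mice. All isotype mice lay below all saline mice of their experiment, and below all anti-RGMb mice in experiment 2, while isotype mouse 3 was above anti-RGMb mouse 1 in experiment 1. Pecam1 fell by 0.34 in isotype mice relative to saline mice (SE 0.06, adjusted p = 9.77e-05) and rose by 0.26 ± 0.06 in anti-RGMb mice relative to isotype mice (adjusted p = 0.00274).

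Cdh5 encodes VE-cadherin, the adherens junction protein specific to endothelium. In experiment 1, Cdh5 read 4595, 5398 and 4887 in anti-RGMb mice, 3976, 4109 and 4701 in isotype mice, and 5353, 5551 and 6063 in saline mice. In experiment 2, Cdh5 read 10466, 10387 and 10579 in anti-RGMb mice, 7158 and 7923 in isotype mice, and 10862, 11557 and 10796 in saline mice. The groups stood in the order isotype, anti-RGMb, saline in experiment 2, without overlap, and isotype mouse 3 overlapped anti-RGMb mice in experiment 1. Cdh5 changed by -0.47 ± 0.06 between isotype and saline mice (adjusted p = 1.41e-05) and by 0.33 ± 0.06 between anti-RGMb and isotype mice (adjusted p = 0.00108). Cldn5, which encodes the main claudin of endothelial tight junctions, changed by -0.35 in the first of these comparisons and 0.33 in the second. Emcn, which encodes the endothelial sialomucin endomucin, fell by 0.28 in isotype mice relative to saline mice, while its difference of 0.17 between anti-RGMb and isotype mice did not pass (adjusted p = 0.0931). Emcn did pass there without anti-RGMb mouse 1 (0.22) or without isotype mouse 3 (0.22). Between anti-RGMb and saline mice the changes were -0.08 for Pecam1, -0.13 for Cdh5, -0.02 for Cldn5, -0.07 for Esam and -0.11 for Emcn, none past the threshold.

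The median change of the kinase genes between isotype and saline mice was -0.67, against -0.35 for the junction genes, and all 6 passed in both the isotype against saline and the anti-RGMb against isotype comparison. Bmx encodes a cytoplasmic tyrosine kinase of the Tec family found in arterial endothelium. In experiment 1, Bmx read 80.6, 80.6 and 78.2 in anti-RGMb mice, 49.7, 53.0 and 61.3 in isotype mice, and 114, 97.0 and 105 in saline mice. In experiment 2, Bmx read 248, 268 and 206 in anti-RGMb mice, 103 and 162 in isotype mice, and 379, 329 and 312 in saline mice. The 3 groups did not overlap in either experiment, with isotype mice lowest and saline mice highest. Bmx changed by -1.14 ± 0.11 between isotype and saline mice (adjusted p = 3.82e-07), by 0.69 ± 0.11 between anti-RGMb and isotype mice (adjusted p = 0.000295) and by -0.45 ± 0.11 between anti-RGMb and saline mice (adjusted p = 0.0154).

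Tek, which encodes the angiopoietin receptor TIE2, changed by -0.88 between isotype and saline mice, 0.57 between anti-RGMb and isotype mice and -0.31 between anti-RGMb and saline mice, past the threshold in all 3. Kdr, the gene of the main VEGF receptor of blood vessels, changed by -0.72 and 0.53 in the first 2 of these, and its -0.19 between anti-RGMb and saline mice did not pass. Flt1, the gene of a VEGF receptor with a soluble decoy form, changed by -0.62, 0.33 and -0.29 in the same 3 comparisons, past the threshold in each. Flt4, which encodes VEGFR3 of lymphatic and sprouting vessels, changed by -0.59 and 0.41, and its -0.18 between anti-RGMb and saline mice did not pass. Tie1, which encodes a co-receptor of TIE2, had the smallest change of the class in isotype against saline mice, -0.42, with 0.34 between anti-RGMb and isotype mice and -0.08, not past, between anti-RGMb and saline mice. Between anti-RGMb and saline mice, Flt1 did not pass without saline mouse 1, 3 or 2-2 or anti-RGMb mouse 1 or 3 (-0.29 to -0.25), and Tek did not pass without anti-RGMb mouse 2 or 3 or saline mouse 1-2 (-0.30 to -0.27). Kdr passed there only without isotype mouse 1-2 (-0.19).

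All 3 transcription factor genes fell in isotype mice relative to saline mice. Erg encodes an ETS factor that keeps junction genes active in endothelium. In experiment 1, Erg read 873, 953 and 963 in anti-RGMb mice, 711, 802 and 819 in isotype mice, and 1786, 1120 and 1074 in saline mice. In experiment 2, Erg read 2463, 2559 and 2413 in anti-RGMb mice, 1621 and 1554 in isotype mice, and 2981, 2977 and 2738 in saline mice. The groups did not overlap in either experiment, and saline mouse 1 was the highest of experiment 1 by a wide margin. Erg changed by -0.78 ± 0.11 between isotype and saline mice (adjusted p = 1.49e-05) and by 0.43 ± 0.11 between anti-RGMb and isotype mice (adjusted p = 0.00713). Its change of -0.35 ± 0.10 between anti-RGMb and saline mice was at the threshold (adjusted p = 0.0493) and was lost in 12 of 17 fits that left out 1 mouse (-0.37 to -0.24), which are all but those without anti-RGMb mouse 2-2, isotype mice 3 and 2-2, and saline mice 2 and 3. Sox18 and Sox17 encode related SOX factors of vessel and lymphatic development. Sox18 changed by -0.63 between isotype and saline mice and by 0.38 between anti-RGMb and isotype mice, and its -0.25 between anti-RGMb and saline mice passed only without anti-RGMb mouse 2-2 (-0.30). Sox17 fell by 0.40 in isotype mice relative to saline mice, while its 0.26 between anti-RGMb and isotype mice did not pass (adjusted p = 0.0635) and did without isotype mouse 2 (0.32), isotype mouse 3 (0.31) or saline mouse 3-2 (0.26). Its -0.14 between anti-RGMb and saline mice did not pass.

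Among genes of peptide and chemokine signalling, the apelin ligand and receptor moved most. Apln encodes apelin, a peptide made by sprouting endothelium. In experiment 1, Apln read 572, 623 and 527 in anti-RGMb mice, 382, 342 and 462 in isotype mice, and 888, 825 and 739 in saline mice. In experiment 2, Apln read 1960, 2399 and 1775 in anti-RGMb mice, 1016 and 1028 in isotype mice, and 2744, 2619 and 2942 in saline mice. Isotype mice were lowest, anti-RGMb mice between and saline mice highest, without overlap in either experiment. Apln changed by -1.22 ± 0.10 between isotype and saline mice (adjusted p = 4.38e-08), by 0.74 ± 0.10 between anti-RGMb and isotype mice (adjusted p = 6.16e-05) and by -0.48 ± 0.10 between anti-RGMb and saline mice (adjusted p = 0.00418).

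Aplnr, the apelin receptor gene, changed by -0.84 between isotype and saline mice, 0.58 between anti-RGMb and isotype mice and -0.26 between anti-RGMb and saline mice, past the threshold in all 3. The last of these did not pass without saline mouse 1, 1-2 or 2-2 or anti-RGMb mouse 2-2 (-0.24 to -0.22). Calcrl and Ramp2 encode the 2 parts of the adrenomedullin receptor, which stabilises the endothelial barrier. Calcrl changed by -0.44 between isotype and saline mice and by 0.28 between anti-RGMb and isotype mice, and Ramp2 by -0.66 and 0.45. Against saline, anti-RGMb mice differed by -0.16 for Calcrl and -0.21 for Ramp2, neither past the threshold, and Ramp2 passed without isotype mouse 3 or 2-2 (-0.21 each). A further probe set carries Ramp2 among several gene symbols and was not used.

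Ednrb, which encodes the endothelin B receptor, fell by 0.31 in isotype mice relative to saline mice and rose by 0.26 in anti-RGMb mice relative to isotype mice. That rise did not pass without anti-RGMb mouse 2 (0.22), isotype mouse 1 (0.24) or isotype mouse 1-2 (0.19), and its -0.05 between anti-RGMb and saline mice did not pass. Cxcl12, a chemokine gene of stromal and endothelial cells, passed in no comparison. Its change was -0.11 between isotype and saline mice (95% interval -0.21 to 0.00), 0.05 between anti-RGMb and isotype mice (-0.05 to 0.16) and -0.05 between anti-RGMb and saline mice (-0.15 to 0.05).

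The class of surface, tone and haemostasis genes was the least uniform, with 2 genes lower, 1 higher and 1 not past in isotype against saline mice. Plvap encodes the protein of the diaphragms that span endothelial caveolae and fenestrae. In experiment 1, Plvap read 2318, 2530 and 2341 in anti-RGMb mice, 1925, 2044 and 2202 in isotype mice, and 2963, 2708 and 2695 in saline mice. In experiment 2, Plvap read 6044, 6467 and 5372 in anti-RGMb mice, 5150 and 4514 in isotype mice, and 6767, 5960 and 6086 in saline mice. Isotype mice were lowest in both experiments, and anti-RGMb and saline mice overlapped in experiment 2. Plvap fell by 0.41 in isotype mice relative to saline mice (SE 0.06, adjusted p = 4.81e-05) and rose by 0.26 ± 0.06 in anti-RGMb mice relative to isotype mice (adjusted p = 0.00567), with -0.15, not past, between anti-RGMb and saline mice.

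Vwf encodes von Willebrand factor, which endothelium and platelets store and which captures platelets at damaged vessels. In experiment 1, Vwf read 632, 951 and 810 in anti-RGMb mice, 992, 919 and 908 in isotype mice, and 881, 644 and 801 in saline mice. In experiment 2, Vwf read 2611, 2288 and 2778 in anti-RGMb mice, 2640 and 2782 in isotype mice, and 2245, 2639 and 1896 in saline mice. Isotype mice lay above saline mice in both experiments, by little in experiment 2, where isotype mouse 1-2 and saline mouse 2-2 nearly met, and anti-RGMb mice overlapped both groups. Vwf rose by 0.29 ± 0.11 in isotype mice relative to saline mice (adjusted p = 0.043), and its -0.18 between anti-RGMb and isotype mice and 0.11 between anti-RGMb and saline mice did not pass. The rise did not pass in 10 of 17 fits that left out 1 mouse, namely without any 1 of the 5 isotype mice (0.26 to 0.31), saline mouse 2 (0.23), 1-2 (0.28) or 3-2 (0.23), or anti-RGMb mouse 3 or 1-2 (0.29 each). It also did not pass with each array centred on its median (0.26) or in either experiment alone.

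Of 4 measured markers of platelets and megakaryocytes, whose granules hold von Willebrand factor, 2 were lower in isotype than in saline mice (Ppbp by -1.44 and Gp9 by -1.04), as were 21.0% of all genes, while Itga2b (-0.46) and Pf4 (0.18) did not pass. Their mean per mouse, relative to the saline mean of the same experiment, was -1.04 to 0.42 in anti-RGMb mice, -1.08 to -0.22 in isotype mice and -0.30 to 0.53 in saline mice, and their part in the Vwf result was not tested. Car4, which encodes a membrane carbonic anhydrase of lung capillaries, fell by 0.18 in isotype mice relative to saline mice (adjusted p = 0.0331). That call was lost without saline mouse 1, 3 or 1-2 or isotype mouse 1, 1-2 or 2-2 (-0.18 to -0.14), and Car4 differed by 0.10 between anti-RGMb and isotype mice and by -0.08 between anti-RGMb and saline mice, neither past. Nos3, the gene of endothelial nitric oxide synthase, which relaxes vessels, passed in no comparison, with -0.13 between isotype and saline mice (95% interval -0.25 to 0.00), 0.13 between anti-RGMb and isotype mice (0.01 to 0.26) and 0.01 between anti-RGMb and saline mice (-0.11 to 0.12). In experiment 2 it read 573, 570 and 643 in anti-RGMb mice, 505 and 570 in isotype mice, and 570, 570 and 570 in saline mice, so the summarised value of this probe set repeated on several arrays.

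The 5 genes of angiogenesis and guidance included Esm1, which had the largest change of the 34 in each of the 3 comparisons, and all 5 fell in isotype mice relative to saline mice and rose in anti-RGMb mice relative to isotype mice. Esm1 encodes endocan, a secreted proteoglycan of the tip cells that lead sprouting vessels. In experiment 1, Esm1 read 119, 63.8 and 72.1 in anti-RGMb mice, 39.7, 37.8 and 41.8 in isotype mice, and 156, 104 and 109 in saline mice. In experiment 2, Esm1 read 178, 277 and 187 in anti-RGMb mice, 145 and 106 in isotype mice, and 604, 362 and 293 in saline mice. Isotype mice were below both other groups in each experiment, and anti-RGMb mice spread widely, with mouse 1 among the saline values of experiment 1. In isotype mice of experiment 1, Esm1 was near the dim Prox1 (39.0 to 39.4), so low signal may limit the size of its change there. Esm1 changed by -1.66 ± 0.19 between isotype and saline mice (adjusted p = 2.51e-06), the 12th most negative change of all 19751 genes, by 0.91 ± 0.19 between anti-RGMb and isotype mice (adjusted p = 0.00241) and by -0.75 ± 0.18 between anti-RGMb and saline mice (adjusted p = 0.0181). The difference from saline did not pass without anti-RGMb mouse 2 (-0.69) or 1-2 (-0.67), or in a fit of either experiment alone. The rise in anti-RGMb mice relative to isotype mice did not pass in a fit of experiment 2 alone.

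Clec14a encodes a C-type lectin of endothelium that takes part in sprouting, and Myct1 an endothelial membrane protein. In experiment 1, Clec14a read 1126, 1126 and 1057 in anti-RGMb mice, 798, 863 and 986 in isotype mice, and 1657, 1513 and 1524 in saline mice. In experiment 2, Clec14a read 2116, 2217 and 1920 in anti-RGMb mice, 915 and 1069 in isotype mice, and 3060, 2642 and 2628 in saline mice. The groups did not overlap, and the gap between isotype and saline mice was wider in experiment 2. Clec14a changed by -1.11 ± 0.12 between isotype and saline mice, 0.65 ± 0.12 between anti-RGMb and isotype mice and -0.46 ± 0.11 between anti-RGMb and saline mice, and it was the only 1 of the 34 genes whose change differed between experiments in the test over all genes, as 0.668% of all genes did between isotype and saline mice and 0.471% between anti-RGMb and isotype mice. Its change between isotype and saline mice was -0.83 in experiment 1 and -1.49 in experiment 2 (interaction adjusted p = 0.0428), and its change between anti-RGMb and isotype mice was 0.33 and 1.07 (interaction adjusted p = 0.034). Myct1 changed by -1.21 between isotype and saline mice, 0.69 between anti-RGMb and isotype mice and -0.53 between anti-RGMb and saline mice, past the threshold in all 3. Robo4, the gene of a guidance receptor that stabilises vessels, changed by -0.63 and 0.52 in the first 2, and Egfl7, the gene of a matrix protein secreted by endothelium, by -0.58 and 0.52. Against saline, anti-RGMb mice differed by -0.11 for Robo4 and -0.07 for Egfl7, neither past the threshold.

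Gja5 and Gja4 encode connexins of arterial endothelium, which join neighbouring cells through gap junctions. In experiment 1, Gja5 read 671, 615 and 564 in anti-RGMb mice, 446, 512 and 576 in isotype mice, and 780, 629 and 676 in saline mice. In experiment 2, Gja5 read 1456, 1560 and 1461 in anti-RGMb mice, 933 and 1132 in isotype mice, and 1834, 1492 and 1616 in saline mice. Isotype mice were below saline mice in both experiments, and isotype mouse 3 was just above anti-RGMb mouse 3 in experiment 1. Gja5 changed by -0.54 ± 0.09 between isotype and saline mice (adjusted p = 6.54e-05) and by 0.39 ± 0.09 between anti-RGMb and isotype mice (adjusted p = 0.00321), with -0.15, not past, between anti-RGMb and saline mice. The values of Gja4 in anti-RGMb mice were near those of isotype mice. Gja4 fell by 0.45 in isotype mice relative to saline mice, its 0.03 ± 0.13 between anti-RGMb and isotype mice did not pass (adjusted p = 0.887), and it was lower by -0.42 in anti-RGMb than in saline mice (adjusted p = 0.0475). In experiment 2, Gja4 read 1012, 1391 and 999 in anti-RGMb mice, 865 and 1109 in isotype mice, and 1715, 1306 and 1964 in saline mice. The call of Gja4 between anti-RGMb and saline mice was lost in 12 of 17 fits that left out 1 mouse (-0.46 to -0.33), which are all but those without anti-RGMb mouse 2-2, isotype mice 3 and 1-2, and saline mice 1 and 2-2.

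Of the 3 lymphatic markers only Mmrn1 passed a threshold. Mmrn1 encodes multimerin, a protein of lymphatic endothelium and platelets. In experiment 1, Mmrn1 read 162, 210 and 179 in anti-RGMb mice, 109, 154 and 169 in isotype mice, and 256, 183 and 203 in saline mice. In experiment 2, Mmrn1 read 438, 524 and 413 in anti-RGMb mice, 204 and 320 in isotype mice, and 470, 610 and 440 in saline mice. Isotype mice lay below saline mice in both experiments, and anti-RGMb mice overlapped saline mice in both. Mmrn1 changed by -0.75 ± 0.15 between isotype and saline mice (adjusted p = 0.000611) and by 0.57 ± 0.15 between anti-RGMb and isotype mice (adjusted p = 0.00959), with -0.17, not past, between anti-RGMb and saline mice. Of the 4 platelet markers, Ppbp and Gp9 rose in anti-RGMb mice relative to isotype mice, by 1.15 and 0.92, as did 11.1% of all genes, while Itga2b (0.36) and Pf4 (-0.22) did not pass, and the part of platelet RNA in the Mmrn1 result was not tested.

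Lyve1, which encodes a hyaluronan receptor of lymphatic endothelium and of some macrophages, passed in no comparison. Its change was 0.12 between isotype and saline mice (95% interval -0.07 to 0.31), 0.12 between anti-RGMb and isotype mice (-0.07 to 0.31) and 0.24 between anti-RGMb and saline mice (0.06 to 0.42), and the last passed without saline mouse 1 (0.30). In experiment 1, Lyve1 read 2474, 2553 and 2355 in anti-RGMb mice, 2345, 2427 and 2346 in isotype mice, and 2539, 1785 and 1775 in saline mice, so saline mouse 1 stood above the other saline mice. Prox1, the gene of the transcription factor that sets lymphatic identity, was dim, and its changes were -0.04 between isotype and saline mice (-0.15 to 0.07), 0.01 between anti-RGMb and isotype mice (-0.10 to 0.12) and -0.03 between anti-RGMb and saline mice (-0.13 to 0.08). Of the other lymphatic genes, 6 of 7 were measured, and Nr2f2, which encodes a transcription factor of venous and lymphatic endothelium, was the only one to pass, with -0.63 between isotype and saline mice and 0.42 between anti-RGMb and isotype mice. The 1 gene of 6 (16.7%) stands against 21.0% of all genes called lower in the first comparison and 11.1% called higher in the second, so the count is near those shares. Itga9 (-0.11 and 0.06), Pdpn (-0.06 and -0.05) and Stab2 (0.06 and 0.08) did not pass in either comparison.

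**Figure D2:**
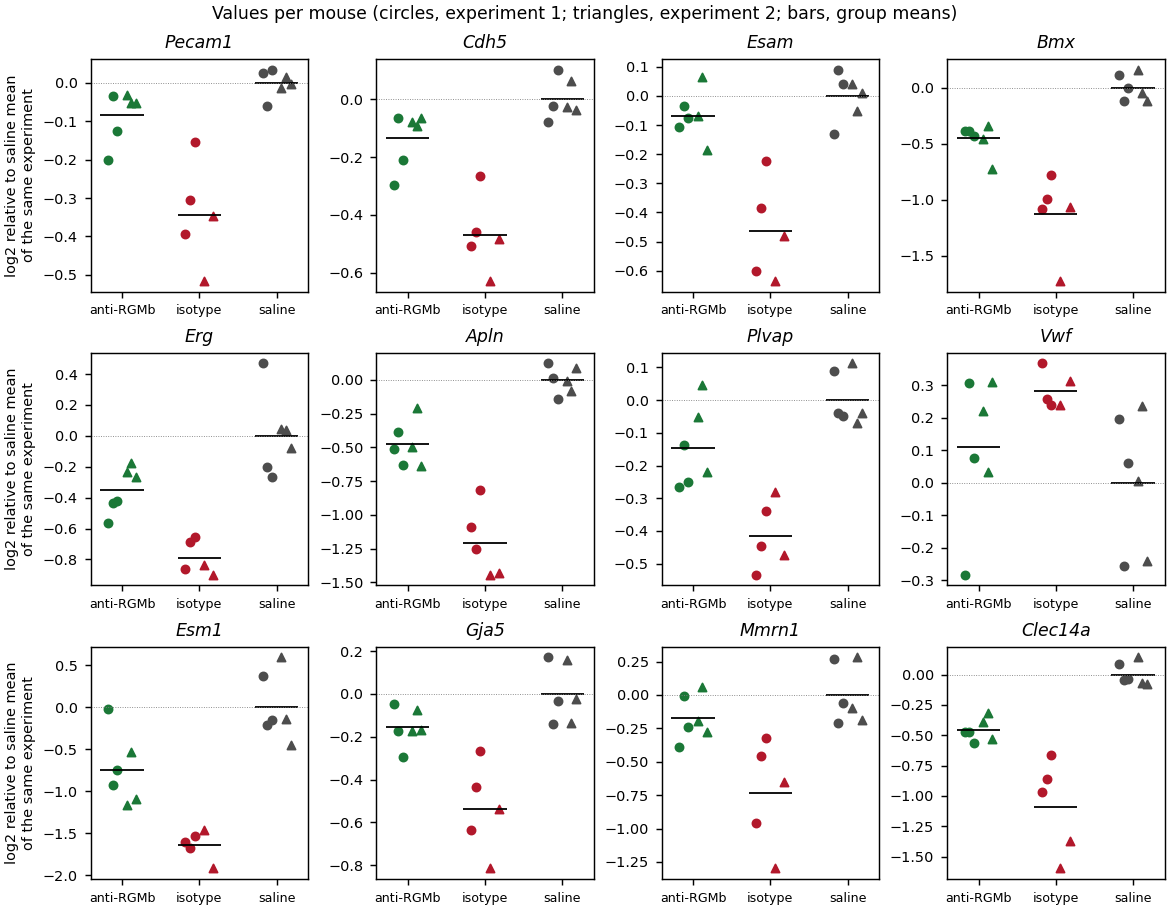
Log2 intensity of 12 of the endothelial genes in each mouse, relative to the mean of the saline mice of the same experiment (vertical axes, with scales of their own), for anti-RGMb, isotype and saline mice; bars are group means. Circles are mice of experiment 1 and triangles of experiment 2. The mean of isotype mice is the lowest for all genes shown but Vwf, for which isotype mice are above saline mice in each experiment, and the mean of anti-RGMb mice lies between the other 2.

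The changes were seen in both experiments. Between isotype and saline mice, 33 of the 34 genes had the same sign in experiments 1 and 2, Lyve1 being the exception, with medians of -0.44 and -0.67. The sign was also the same for 15169 of all 19751 genes. In a limma model that gave each group its own mean in each experiment, 23 of the 34 genes fell in experiment 1, as did 11.6% of all genes, and 28 in experiment 2, as did 15.8% of all genes. The groups did not overlap in either experiment, with isotype mice lower, for 26 of the 34 genes, as for 15.1% of all genes, and for 18 of the 34 genes anti-RGMb mice were above isotype mice without overlap in both experiments, as for 7.57% of all genes. Between anti-RGMb and isotype mice, medians were 0.28 in experiment 1 and 0.49 in experiment 2, with 12 genes higher in experiment 1 (3.35% of all genes) and 26 in experiment 2 (8.63% of all genes). Only Clec14a passed the test of the difference between experiments in either of these comparisons, so the larger medians of experiment 2 are given as description.

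**Figure D3:**
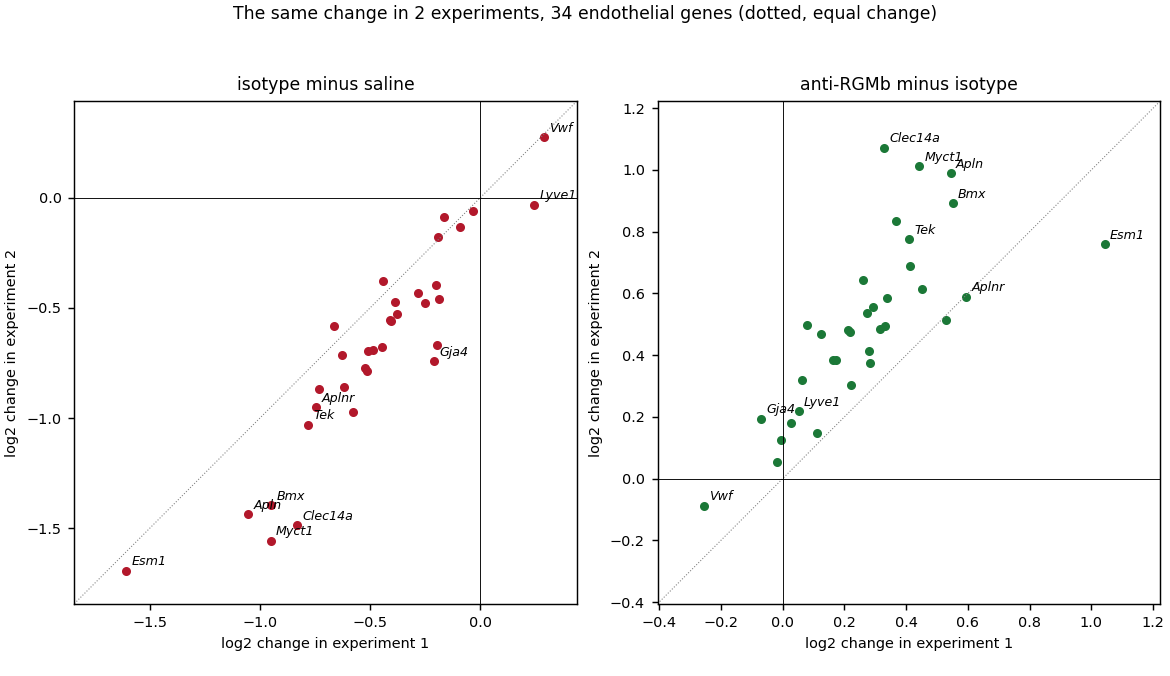
Log2 change of each of the 34 endothelial genes in experiment 1 (horizontal axis) against experiment 2 (vertical axis), for isotype minus saline (left) and anti-RGMb minus isotype (right); the dotted line marks equal change and 10 genes are named. Most points lie below 0 on both axes at the left and above 0 on both at the right, and Clec14a is at -0.83 and -1.49 at the left and at 0.33 and 1.07 at the right.

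Since both comparisons use the isotype mice, a change in one experiment was also set beside the other change in the other experiment. The changes set side by side, and their signs, then share no mouse. The calls are not separate in this way, as they came from the limma fit of all mice. The variance of each gene in that fit draws on both experiments, and these calls also chose the lowered genes. Of the 23 genes that fell in isotype mice relative to saline mice in experiment 1, 23 were above 0 between anti-RGMb and isotype mice of experiment 2, and 22 were called higher there. Among all genes, 2285 fell in experiment 1, of which 96.7% were above 0 and 55.2% called higher in experiment 2. In the reverse order, 28 genes fell in experiment 2, of which 27 were above 0 and 12 called higher in experiment 1, against 94.6% and 18.9% of the 3129 genes that fell among all. A difference above 0 in the other experiment was thus common to nearly all lowered genes, endothelial or not.

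The 34 genes did not change by 1 common amount, and the junction genes were used as a scale for the others. The mean of Pecam1, Cdh5, Cldn5, Esam and Emcn changed by -0.38 ± 0.06 between isotype and saline mice and by 0.30 ± 0.06 between anti-RGMb and isotype mice. Platelets and leukocytes also carry the product of Pecam1, and a scale without Pecam1 was not fitted. Each array's mean of these 5 genes was subtracted from every other gene before the limma fit, a setting chosen after the data were seen, which moved the median of all genes by 0.34 in the first comparison and by -0.27 in the second. On this relative scale, 16 of the other 29 genes were lower in isotype than in saline mice, with 3.58% of all genes called lower, and 6 were higher, with 77.9% of all genes called higher. The 16 were Tek, Kdr, Flt1, Flt4, Bmx, Sox18, Erg, Apln, Aplnr, Ramp2, Esm1, Robo4, Egfl7, Clec14a, Myct1 and Mmrn1. Esm1 was lower by -1.27 ± 0.20 relative to the junction genes, Apln by -0.83 ± 0.09, Myct1 by -0.83 ± 0.10, Bmx by -0.76 ± 0.10, Clec14a by -0.73 ± 0.09 and Tek by -0.50 ± 0.07. Mmrn1 (-0.36) did not pass without isotype mouse 1-2 (-0.25). The 6 that were higher on this scale were Vwf (0.67), Lyve1 (0.50), Prox1 (0.34), Cxcl12 (0.28), Nos3 (0.26) and Car4 (0.20). Of these, only Vwf was called higher before the subtraction, while Car4 was called lower (-0.18) and the others did not pass. The dim Prox1 changed by -0.04 before it, so its 0.34 mirrors the fall of the junction mean. Tie1, Sox17, Ednrb, Calcrl, Plvap, Gja4 and Gja5 did not pass, with relative changes from -0.16 for Gja5 to 0.08 for Ednrb.

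Between anti-RGMb and isotype mice, 10 of the 29 genes were higher relative to the junction genes, with 1.60% of all genes called higher, and 5 were lower, with 66.9% of all genes called lower. The 10 were Esm1 (0.61), Apln (0.44), Bmx (0.39), Myct1 (0.39), Clec14a (0.35), Aplnr (0.28), Tek (0.27), Kdr (0.23), Robo4 (0.22) and Egfl7 (0.22). The 5 lower were Vwf (-0.48), Prox1 (-0.29), Gja4 (-0.27), Cxcl12 (-0.25) and Car4 (-0.20). None of the 5 passed between these groups before the subtraction. The dim Prox1 changed by 0.01 there, so its -0.29 mirrors the rise of the junction mean. Car4 did not pass without isotype mouse 1-2 (-0.16), and Gja4 did not pass without anti-RGMb mouse 3, 1-2 or 3-2 or isotype mouse 1, 3 or 2-2 (-0.26 to -0.22). Mmrn1 (0.27), Nos3 (-0.17) and Ramp2 (0.15) did not pass with all mice. Mmrn1 passed without isotype mouse 2, 3 or 2-2, anti-RGMb mouse 1 or 3-2, or saline mouse 1, 2 or 2-2 (0.27 to 0.33), Nos3 without anti-RGMb mouse 1 or 3-2, isotype mouse 1 or 3 or saline mouse 2 (-0.20 to -0.17), and Ramp2 without anti-RGMb mouse 3 or isotype mouse 1-2 (0.19 each).

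Other genes of the same cells were taken from lists that were written with earlier results of these data known. Of 27 measured other endothelial genes, 23 fell in isotype mice relative to saline mice by limma, none rose and 4 did not pass, with 1 higher at an unadjusted p under 0.05, against 21.0% of all genes called lower and 14.6% higher. In anti-RGMb mice relative to isotype mice 20 rose, none fell and 7 did not pass, with 0 lower at an unadjusted p under 0.05, against 11.1% of all genes called higher and 10.0% lower. Eng, the gene of the TGF-beta and BMP co-receptor endoglin, changed by -0.61 ± 0.06 and 0.44 ± 0.06 in these 2 comparisons, and Acvrl1, the gene of the receptor kinase it works with, by -0.64 ± 0.07 and 0.40 ± 0.07. Arhgef15 changed by -0.72 ± 0.07 and 0.44 ± 0.07. Rasip1, the gene of a Ras-interacting protein needed for vessel lumens, changed by -0.50 ± 0.05 and 0.41 ± 0.05, and S1pr1, the gene of a sphingosine phosphate receptor that tightens the barrier, by -0.55 ± 0.08 and 0.60 ± 0.08. Fli1 (0.14 and -0.01) and Procr (0.04 and -0.12) passed in neither comparison.

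Of 18 genes of VEGF, angiopoietin and Notch signalling, 9 fell, 2 rose and 7 did not pass in isotype mice relative to saline mice, and 10 rose, 2 fell and 6 did not pass in anti-RGMb mice relative to isotype mice. The shares of all genes were again 21.0% lower and 14.6% higher in the first comparison, and 11.1% higher and 10.0% lower in the second. Vegfa, which encodes the chief ligand of the receptors of Kdr and Flt1 and is made largely by epithelium in the lung, changed by -0.63 ± 0.06 (adjusted p = 3.68e-07) and 0.45 ± 0.06 (adjusted p = 6.68e-05). Dll4, the gene of an arterial and tip cell Notch ligand, changed by -0.74 ± 0.08 and 0.52 ± 0.08, and the Notch target gene Hey1 by -0.85 ± 0.09 and 0.54 ± 0.09. Pgf, the gene of placental growth factor, a ligand of the Flt1 product, went the other way with 0.67 ± 0.09 and -0.44 ± 0.09, as did Nrp2, the gene of a co-receptor for VEGF and semaphorins, with 0.55 ± 0.10 and -0.50 ± 0.10. Angptl4, the gene of an angiopoietin-like protein that inhibits lipoprotein lipase, differed by 0.40 between isotype and saline mice and by 0.35 between anti-RGMb and isotype mice, neither past, and was higher by 0.76 ± 0.15 in anti-RGMb than in saline mice (adjusted p = 0.00444). Vegfc, which encodes a ligand of VEGFR3, passed in none, with -0.07 between anti-RGMb and isotype mice.

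The genes of endothelial activation and leukocyte adhesion split, with 4 higher, 4 lower and 3 not past of 11 measured in isotype against saline mice, and 4 higher, 2 lower and 5 not past in anti-RGMb against isotype mice. Of all genes, 14.6% were higher and 21.0% lower in the first of these comparisons, and 11.1% higher and 10.0% lower in the second. Lrg1, the gene of a secreted glycoprotein of inflamed vessels and neutrophils, changed by 0.86 ± 0.16 and -0.47 ± 0.16, and Ackr1, the gene of an atypical chemokine receptor of venules and red cells, by 0.48 ± 0.11 and -0.36 ± 0.11, though it was below the lower quartile on 10 arrays. Vcam1, the gene of an adhesion molecule for eosinophils and lymphocytes, rose by 0.17 ± 0.05 in isotype mice relative to saline mice, its 0.07 between anti-RGMb and isotype mice did not pass, and it was higher by 0.24 ± 0.05 in anti-RGMb than in saline mice. Sele, the E-selectin gene, rose by 0.22 ± 0.08 in isotype mice relative to saline mice (adjusted p = 0.0477), and its -0.11 between anti-RGMb and isotype mice did not pass. Cx3cl1, the gene of a membrane-bound chemokine of endothelium and epithelium, changed by -0.93 ± 0.09 and 0.63 ± 0.09, and Cd99l2, the gene of a protein of leukocyte passage, by -0.40 ± 0.06 and 0.29 ± 0.06. Chst2, the gene of a sulphotransferase for selectin ligands, changed by -0.55 ± 0.09 and 0.30 ± 0.09, and Jam2, a junctional adhesion molecule gene, by -0.48 ± 0.09 and 0.32 ± 0.09.

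**Figure D4:**
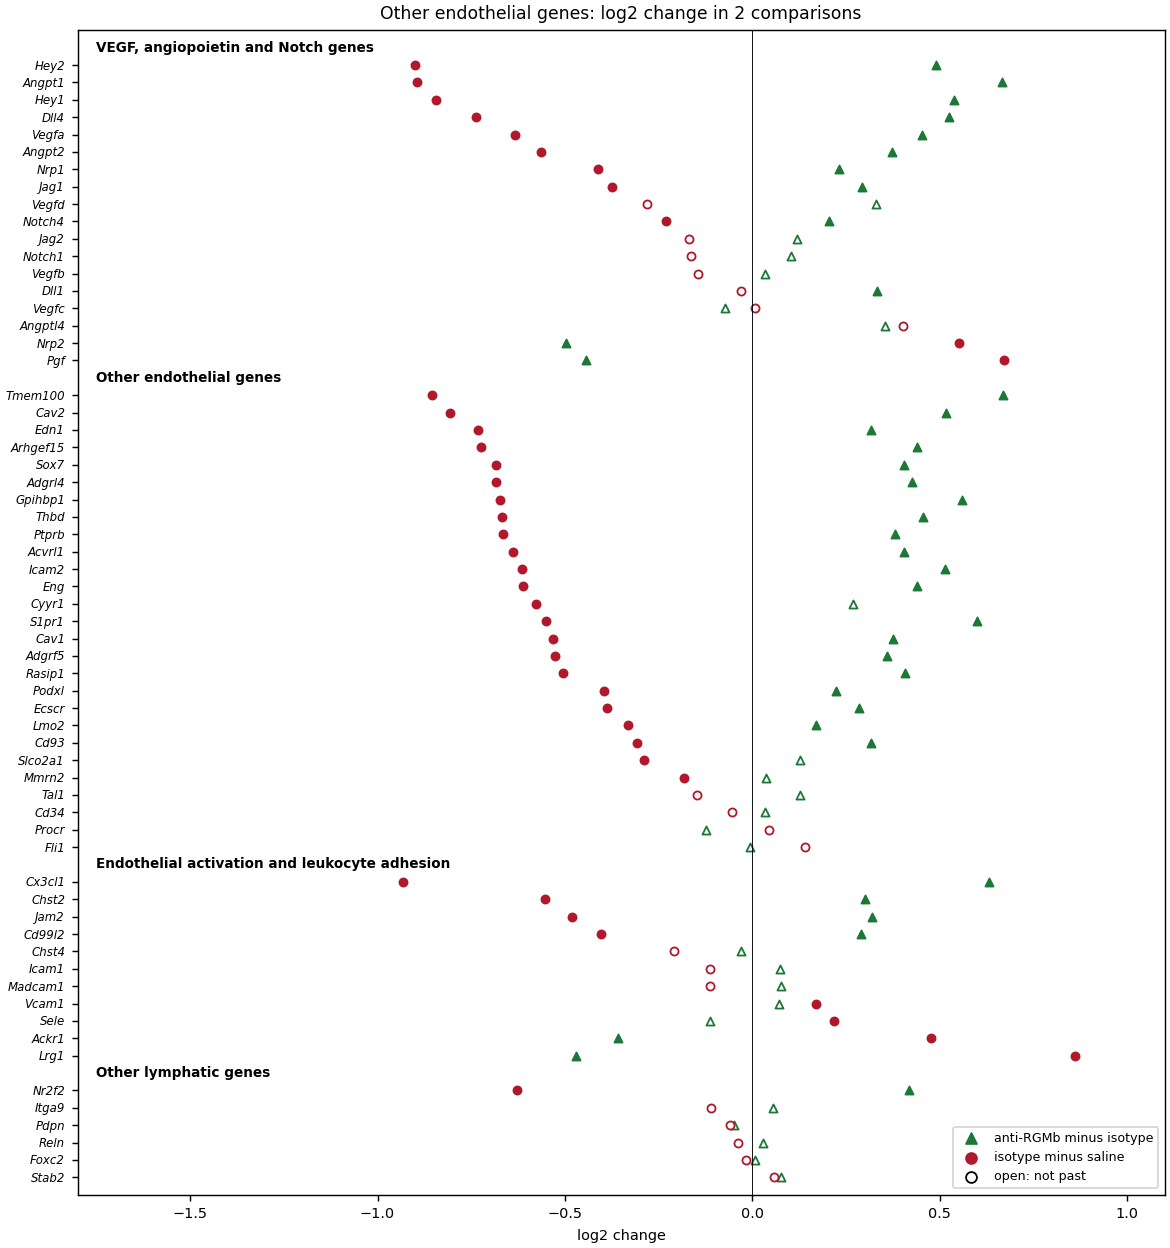
Log2 change of the measured genes of 4 lists of other endothelial genes (rows, by list and by change) for anti-RGMb minus isotype (triangles) and isotype minus saline (circles); filled symbols passed the limma threshold and open ones did not. Most circles lie left of 0 and most triangles right of 0, and the genes past the threshold the other way in both comparisons are Lrg1, Pgf, Nrp2 and Ackr1.

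Markers of other cells moved in the same mice. Relative to the saline mean of the same experiment, the mean of 7 leukocyte markers was 0.68 to 0.99 in anti-RGMb mice, 1.16 to 1.49 in isotype mice and -0.04 to 0.06 in saline mice, with 7 of 7 higher in isotype than in saline mice and 5 of 7 lower in anti-RGMb than in isotype mice. The mean of 7 proliferation genes was 0.87 to 1.09 in anti-RGMb mice, 1.58 to 2.50 in isotype mice and -0.47 to 0.29 in saline mice, with all 7 genes higher in isotype than in saline mice and lower in anti-RGMb than in isotype mice. Neither range overlapped between groups, and neither did the median of the 34 endothelial genes, at -0.26 to -0.08 in anti-RGMb mice, -0.66 to -0.30 in isotype mice and -0.05 to 0.05 in saline mice. Epithelial markers shifted less, with a mean of 8 genes of -0.10 to 0.01 in anti-RGMb mice, -0.21 to -0.12 in isotype mice and -0.11 to 0.07 in saline mice, and 4 of 8 lower in isotype than in saline mice. The mean of 9 smooth muscle and pericyte markers was -0.36 to 0.04, -0.38 to -0.02 and -0.09 to 0.12 in the same order of groups, with 4 of 9 lower and 1 higher in isotype against saline mice. For 4 fibroblast markers the mean was -0.09 to 0.19, -0.60 to -0.07 and -0.07 to 0.10, with 2 lower and 1 higher. Beside these counts, 14.6% of all genes were called higher and 21.0% lower in isotype against saline mice. In anti-RGMb against isotype mice 11.1% were called higher and 10.0% lower. In exact permutation tests within experiments, 2-sided and adjusted over 21 tests, the leukocyte, proliferation, epithelial and fibroblast means differed between isotype and saline mice and between anti-RGMb and isotype mice (adjusted p = 0.0105 each, from the smallest p these permutations can give, 0.005). In the same exact tests the smooth muscle and pericyte mean differed between isotype and saline mice (adjusted p = 0.0286), as did the platelet mean (adjusted p = 0.0323), and neither passed between anti-RGMb and isotype mice (adjusted p = 0.171 and 0.147). The part of these cells in the endothelial changes was not tested.

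The heart muscle markers, whose cells lie in the heart and in the walls of pulmonary veins, varied widely between mice. Their mean over 10 genes was -1.28 to 0.96 in anti-RGMb mice, -1.73 to -0.35 in isotype mice and -0.54 to 1.03 in saline mice. By limma, 8 of 10 genes were lower in isotype than in saline mice, as were 21.0% of all genes, and 5 of 10 were higher in anti-RGMb than in isotype mice, as were 11.1% of all genes. The group means differed by -1.32 between isotype and saline mice (exact permutation test, adjusted p = 0.0323) and by 1.05 between anti-RGMb and isotype mice (adjusted p = 0.045 in the same exact test), the same directions as most of the 34 endothelial genes, and the part of heart muscle RNA in those changes was not tested.

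**Figure D5:**
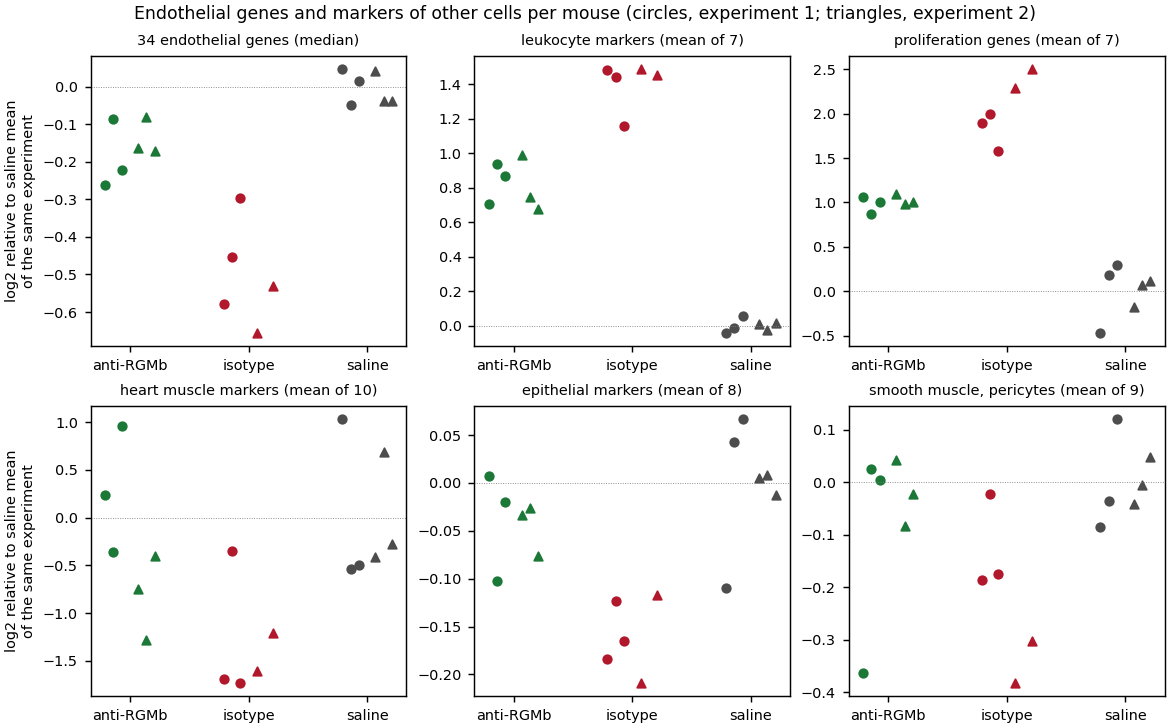
Median of the 34 endothelial genes and mean of 5 lists of markers in each mouse, as log2 relative to the saline mean of the same experiment (vertical axes, with scales of their own), for anti-RGMb, isotype and saline mice. Isotype mice are lowest in the endothelial panel (-0.66 to -0.30) and highest in the leukocyte panel (1.16 to 1.49), with anti-RGMb mice between, and single mice overlap between groups in the heart muscle panel, where the means of isotype and saline mice differ by -1.32.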

How the data were processed

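The authors deposited 1 intensity per probe set on a linear scale, made with RMA according to the submitters' processing notes. Its version and the genome build are not given in the sources used here. Per the labels, total RNA came from lung and was biotin-labelled. The scale was read from the values, whose lowest was 3.02. Of 24679 probe sets, 21354 had 1 gene symbol and were used; 1275 had several and 2050 none. For 893 genes with several probe sets the brightest was kept, which left 19751 genes. The log2 of each intensity was taken with no added constant.

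Group means with an experiment term were fitted over all genes with limma 3.58.1 in R 4.3.3 (eBayes, prior degrees of freedom 4.32), 2-sided, with Benjamini-Hochberg adjustment over all genes of a comparison. Values within experiments and the interaction came from a second fit, of group by experiment. The lowest correlation between arrays of 1 experiment was 0.975 in experiment 1 and 0.968 in experiment 2. Mice are separate animals by their labels. Only 3 of 16 pairs of same-numbered mice had a residual correlation above 0.1 (range -0.60 to 0.30), and mice were not taken as paired.

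The members, role classes and lists were chosen with earlier results of these data known. By rule, each member is named with its 3 changes, and values per mouse are given for the called member of each class with the largest change between isotype and saline mice and the same sign in both experiments, for Vwf, Pecam1 and Cdh5, and for any member called higher there. Clec14a, and values of Gja4, Nos3 and Lyve1 in 1 experiment, were added after their values were seen. Of each other list, up to 3 genes with the smallest p in each direction of 2 comparisons are named. Prx, Tspan7, Selp, Ccl21a, Gp1bb and Ccnb1 were planned for lists but could not be matched to a single-symbol probe set, and are not analysed here.

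Alternatives were the mean of probe sets, leaving out the dimmest 40% of genes, centring on array medians, quantile normalization, trended and robust variance, each experiment alone, a replicate block, and leaving out each of the 17 mice. The fit relative to junction genes was added after the data were seen.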

Additional observations from a re-analysis of the deposited data

Results flagged for a closer look

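In 102 checks of 1 gene in 1 group, 3 values stood apart from the rest of their group by Dixon's criterion. Chance gives about 1 in 20 such checks, a larger share than was seen here. Bmx in anti-RGMb mouse 3-2 was at -0.72 on the log2 scale relative to the saline mean of its experiment, with the other anti-RGMb mice at -0.45 to -0.34. Myct1 in the same mouse was at -0.87, with the others at -0.53 to -0.35. Nos3 in saline mouse 2 was at 0.13, with the other saline mice at -0.06 to 0.00.

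The change of Clec14a differed between experiments by the interaction test of limma. The experiment 2 minus experiment 1 difference was -0.65 for isotype minus saline (adjusted p = 0.0428) and 0.75 for anti-RGMb minus isotype (adjusted p = 0.034). The 2 differences share the isotype mice. All isotype mice of both experiments were below all anti-RGMb and saline mice of their experiment.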

How the results depend on the processing

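No call of a single gene reversed. Over 847 recomputed values per comparison, 819 stayed on the same side of the threshold for isotype minus saline, and 28 lost the call. For anti-RGMb minus isotype 816 stayed, 24 lost and 7 gained the call, and for anti-RGMb minus saline 779 stayed, 61 lost and 7 gained it. Changes that passed in neither fit could still change sign, as that of Gja4 between anti-RGMb and isotype mice did (0.03 with all mice, -0.07 to 0.09 with single mice left out). For 27, 14 and 20 of the 34 genes, in that order, no alternative moved the call. The rise of Vwf in isotype mice relative to saline mice was the least stable call of that comparison, lost in 14 of 25 alternatives. The count of higher members there was thus 0 with median centring, in experiment 1 alone, in experiment 2 alone and with the replicate block, and 0 to 1 with single mice left out. Between anti-RGMb and saline mice, the calls of Erg and Gja4 were lost in 16 and 15 of 25 alternatives. The median of isotype minus saline was -0.44 in experiment 1 alone, -0.67 in experiment 2 alone and -0.57 to -0.45 with single mice left out, the first of these without isotype mouse 3. For anti-RGMb minus isotype, experiment 1 alone gave 8 higher members and a median of 0.28, and experiment 2 alone a median of 0.49. For anti-RGMb minus saline, lower members numbered 3 in experiment 1 alone, 0 in experiment 2 alone, 5 with the replicate block and 6 to 11 with single mice left out, with 6 without anti-RGMb mouse 2, anti-RGMb mouse 3 or saline mouse 1-2, and higher members 0 to 1. Fits of 1 experiment hold fewer mice, and the cause of the other shifts was not tested. With the replicate block (same number within an experiment) the isotype minus saline call of Car4 was also lost (-0.19), as were the anti-RGMb minus saline calls of Tek, Erg, Aplnr, Clec14a and Gja4, and it changed no other call. Relative to junction genes, leaving out single mice gave 15 to 16 lower and 6 higher members for isotype minus saline and 10 to 11 higher and 4 to 6 lower for anti-RGMb minus isotype, and the mean of Pecam1 and Cdh5 alone gave 16, 6, 11 and 5. Leaving out the dimmest genes removed Bmx, Esm1 and Prox1, which have no value there, and low signal limits what the values of Prox1 can show.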
